A study of Mus musculus with 12 samples.

Results

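The genes described here encode the MIF family of cytokines, their receptors and a partner chemokine: Mif, Ddt, Cd44, Cxcr4, Cxcr2, Ackr3 and Cxcl12. They were chosen by gene symbol in the platform annotation, each had 1 probe set, and all 7 of the 7 were among the 19505 named genes measured. The study measured gene expression on 12 whole-transcript microarrays of wildtype C57BL/6J mouse cardiac fibroblasts, taken from hearts at postnatal days 1 to 7 and cultured to the myofibroblast state, in which they contract and secrete matrix. The 4 groups of 3 arrays received 40 nM sCD74 together with 8 nM MIF (sCD74/MIF), 8 nM MIF alone, 40 nM sCD74 alone, or carrier, each for 8 h. Every group was primary culture of the same strain and genotype, and the labels name no sorting step and no pooling of animals. In the sample titles, the arrays numbered 1, 2 or 3 share a code, so each replicate number held 1 array of each treatment.

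Macrophage migration inhibitory factor (MIF) is a cytokine that binds the membrane protein CD74, which signals through its partner CD44, and also acts on the chemokine receptors CXCR2 and CXCR4. ACKR3, an atypical receptor that removes chemokines rather than coupling to G proteins in the usual way, binds both MIF and CXCL12, the cognate ligand of CXCR4. Soluble CD74 (sCD74) is the shed extracellular part of CD74 and binds MIF outside the cell. In the heart, MIF is known for actions on cardiomyocyte survival, inflammation and scarring, and CXCL12 for attracting CXCR4-bearing cells.

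Values were deposited as log2, and a probe set's value cannot be set against another's, so each gene was compared with itself across arrays and with the 5222 negative control probe sets. The median of the negative controls ran from 7.37 to 7.90 over the 12 arrays (mean 7.53), and the array median of all probe sets from 8.01 to 8.14. All 8 measured fibroblast markers of 9 listed lay above that background, with a list mean of 14.96 to 15.18 per array. The 15 measured macrophage markers and 9 of 10 measured endothelial markers also had means above background, whereas 0 of 5 lymphocyte markers did. Separate isolations for the replicate arrays are not stated in the labels, so p-values measure the spread between these arrays, which may be technical.

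Mif and Ddt, the ligands, were measured in all 12 arrays above the negative control median. Mif, the cytokine itself, had log2 values of 11.23, 10.85 and 10.72 in the sCD74/MIF arrays 1, 2 and 3, 10.66, 10.84 and 11.20 in the MIF arrays, 10.86, 10.92 and 10.58 in the sCD74 arrays, and 10.27, 10.81 and 10.58 in the carrier arrays. The lowest value was carrier array 1, and every treated group overlapped the carrier group. Group means ran from 10.94 ± 0.27 with sCD74/MIF, 10.90 ± 0.27 with MIF and 10.78 ± 0.18 with sCD74 to 10.55 ± 0.27 with carrier (SD, n = 3 each), and neighbours in that order differed by less than the larger of their SDs. The log2 difference from carrier was 0.38 ± 0.19 for sCD74/MIF (SE, 95% interval -0.03 to 0.80, limma's Benjamini-Hochberg adjusted p = 0.999). For MIF alone it was 0.35 ± 0.19 (-0.07 to 0.76), and for sCD74 alone 0.23 ± 0.19 (-0.19 to 0.64). Same-numbered arrays differed by 0.96, 0.04 and 0.14 between sCD74/MIF and carrier, so array pair 1 carried most of the difference, and without replicate number 1 it was 0.09. Over all arrays or numbers left out, the values ran from 0.09 to 0.55 for sCD74/MIF, 0.20 to 0.50 for MIF and 0.05 to 0.36 for sCD74. The added MIF protein is not measured by a probe set for Mif mRNA.

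The RefSeq gene table lists pseudogene copies of Mif, and the sources used here do not say whether the probes of Mif also match these. Mif values lay 2.58 to 3.84 log2 units above the negative control median of their own array.

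Ddt encodes D-dopachrome tautomerase, the MIF homologue that also binds CD74. Its values were 8.51, 9.01 and 8.77 with sCD74/MIF, 8.36, 9.02 and 8.99 with MIF, 8.74, 8.70 and 9.21 with sCD74, and 8.88, 8.81 and 9.39 with carrier (arrays 1, 2 and 3). The groups overlapped, and the order of the group means was the reverse of that of Mif: 8.76 ± 0.25 with sCD74/MIF, 8.79 ± 0.37 with MIF, 8.88 ± 0.28 with sCD74 and 9.03 ± 0.32 with carrier (SD, n = 3 each), with neighbours again closer than their SDs. The log2 difference from carrier was -0.27 ± 0.22 for sCD74/MIF (95% interval -0.75 to 0.22), -0.24 ± 0.22 for MIF and -0.15 ± 0.22 for sCD74 (SE). None of these 3 passed the test. With arrays or replicate numbers left out, the sCD74/MIF value ran from -0.50 to -0.08 and the MIF value from -0.46 to -0.02. Ddt was lower with sCD74 in all 3 same-numbered pairs, by 0.11 to 0.18. On every array it lay 0.92 to 1.70 log2 units above the negative control median, with 68.9% to 81.9% of the negative controls below it.

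Cd44 encodes the hyaluronan receptor that signals for CD74 once MIF has bound. It had values of 13.10, 12.69 and 12.80 with sCD74/MIF, 12.81, 12.67 and 13.17 with MIF, 12.95, 12.50 and 12.79 with sCD74, and 12.97, 12.63 and 12.67 with carrier (arrays 1, 2 and 3). Values lay 4.89 to 5.71 above the negative control median, and the groups overlapped throughout. The log2 difference from carrier was 0.11 ± 0.18 for sCD74/MIF (95% interval -0.27 to 0.49), 0.13 ± 0.18 for MIF and -0.01 ± 0.18 for sCD74 (SE).

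Cxcr4, the receptor of CXCL12 and a non-cognate receptor of MIF, had values of 11.05, 9.91 and 9.93 with sCD74/MIF, 11.55, 9.92 and 10.35 with MIF, 11.12, 10.32 and 9.64 with sCD74, and 11.16, 10.35 and 10.44 with carrier (arrays 1, 2 and 3). Array 1 was the highest in all 4 groups, and the spread between replicates (SD 0.45 to 0.85) exceeded every difference between group means. The log2 difference from carrier was -0.35 ± 0.46 for sCD74/MIF (95% interval -1.35 to 0.64), -0.04 ± 0.46 for MIF and -0.29 ± 0.46 for sCD74 (SE). These SEs hold the spread between replicate numbers. When the fit had the replicate number as a block, each SE was 0.19, and the sCD74/MIF interval was -0.76 to 0.06. All 3 same-numbered differences were negative for sCD74/MIF against carrier (-0.11, -0.44 and -0.51) and for sCD74 against carrier (-0.05, -0.03 and -0.80). With the replicate number as a block in the fit, the mean of the 6 arrays that received sCD74 was 0.30 ± 0.13 log2 units (SE) below that of the 6 that did not (95% interval -0.59 to -0.0099). Its adjusted p in limma was 0.992, so the difference did not pass the test. Without the block and with arrays or replicate numbers left out, it ran from -0.49 (without sCD74 array 1 or sCD74/MIF array 1) to -0.06 (without MIF array 1), and was -0.12 without sCD74 array 3.

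Cxcr2, the receptor through which CXCL1, CXCL2 and CXCL5 attract neutrophils and a second non-cognate receptor of MIF, stayed near background. Between 47.7% and 64.4% of the negative control probe sets lay below it on any array. Its values were 7.89, 7.70 and 7.68 with sCD74/MIF, 7.71, 8.04 and 7.79 with MIF, 7.38, 7.82 and 8.57 with sCD74, and 8.18, 7.63 and 7.74 with carrier (arrays 1, 2 and 3). The sCD74 group held both the lowest and the highest of the 12 values. Differences from carrier were -0.09 ± 0.25 for sCD74/MIF, -0.0027 ± 0.25 for MIF and 0.07 ± 0.25 for sCD74 (SE), and at these signal levels a change of Cxcr2 was not detectable.

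Ackr3, the scavenging receptor shared by MIF and CXCL12, had values of 8.72, 6.62 and 7.54 with sCD74/MIF, 8.78, 6.05 and 7.81 with MIF, 8.62, 6.83 and 7.16 with sCD74, and 8.28, 6.06 and 7.41 with carrier (arrays 1, 2 and 3). In each group array 1 was highest and array 2 lowest, and 6 of the 12 values lay below the negative control median of their array. The log2 difference from carrier was 0.38 ± 0.75 for sCD74/MIF (95% interval -1.24 to 2.00), 0.30 ± 0.75 for MIF and 0.29 ± 0.75 for sCD74 (SE). These SEs hold the spread between replicate numbers. With the replicate number as a block in the fit, each SE was 0.21, and the sCD74/MIF interval was -0.07 to 0.83. The 3 same-numbered differences between sCD74/MIF and carrier were positive, at 0.44, 0.56 and 0.14, with array 2 below background in both groups. Carrier array 3 was also below background (-0.29 from its negative control median), and sCD74/MIF array 3 lay 0.07 above.

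Cxcl12, the chemokine ligand of CXCR4 and ACKR3, lay 7.48 to 8.45 log2 units above the negative control median. Its values were 15.69, 15.59 and 15.52 with sCD74/MIF, 15.90, 15.55 and 15.65 with MIF, 15.78, 15.58 and 15.38 with sCD74, and 15.78, 15.56 and 15.65 with carrier (arrays 1, 2 and 3). All 12 values lay between 15.38 and 15.90, and the groups overlapped. The log2 difference from carrier was -0.06 ± 0.14 for sCD74/MIF (95% interval -0.37 to 0.24), 0.04 ± 0.14 for MIF and -0.08 ± 0.14 for sCD74 (SE).

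**Figure D1:**
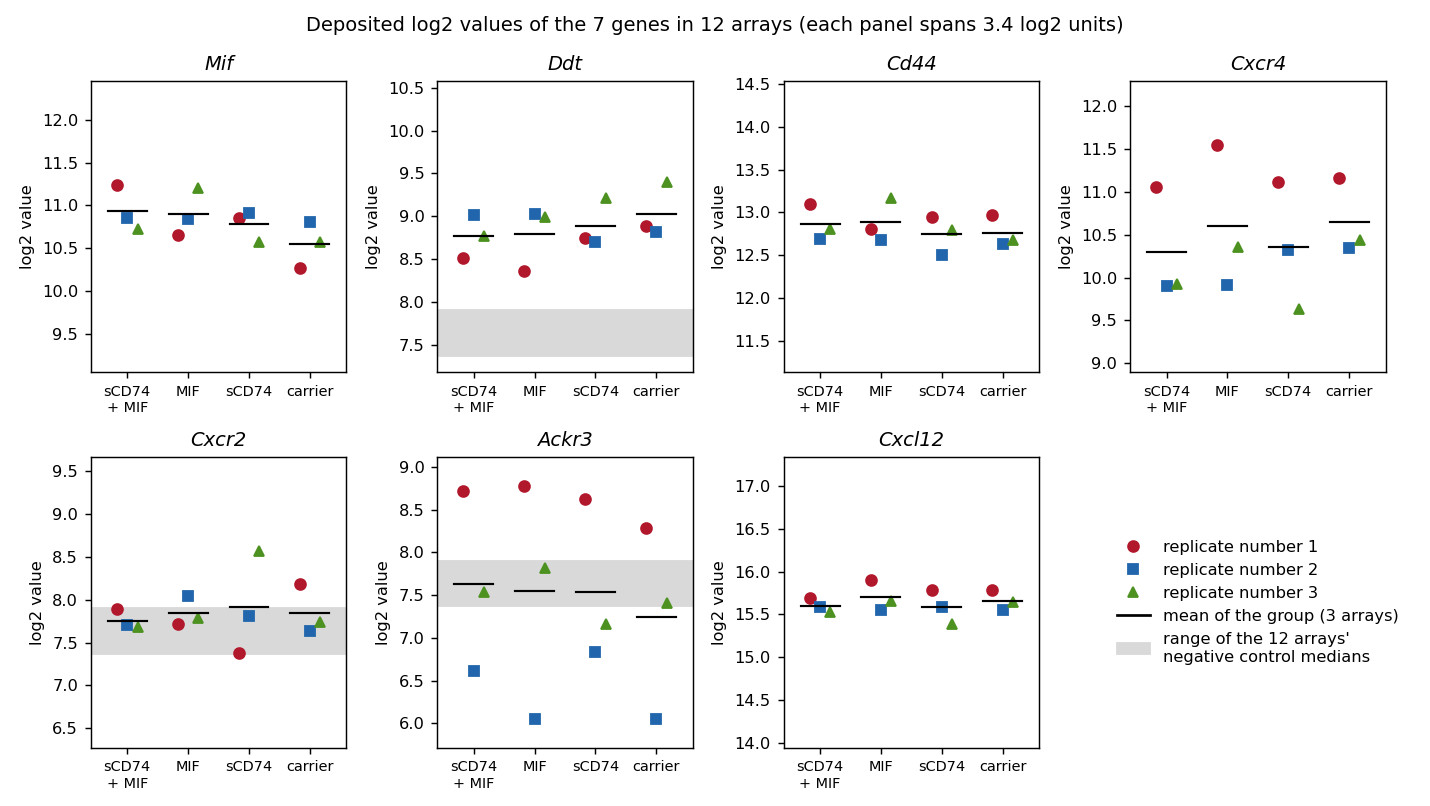
Deposited log2 values of the 7 genes by treatment (x axis) on each of the 12 arrays, with the replicate number as colour and shape, the group mean as a line and the range of negative control medians (7.37 to 7.90) as a grey band. Array 1 stands above arrays 2 and 3 in every group for Cxcr4 and Ackr3, Cxcr2 lies in or near the band, and Ackr3 crosses it.

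Across the 3 comparisons with carrier, 0 of 7 genes passed limma's test at an adjusted p below 0.05, and the background was 0% (0 of 19505 genes) in each. At an unadjusted p below 0.05 the count was also 0 of 7 in each, against 4%, 3.35% and 1.79% of all genes for sCD74/MIF, MIF and sCD74. The comparisons of sCD74/MIF with sCD74, of sCD74/MIF with MIF and of MIF with sCD74, both pooled main effects and the departure from additivity each gave 0 of 7 as well, with a background of 0%. With the replicate block 0 of 7 passed in all 9 comparisons, with a background of 0% in 8 of them and of 0.00513% (1 gene, higher) for MIF against no MIF. Cxcr4 with sCD74 against without, above, was the 1 case with an unadjusted p below 0.05, in a comparison where 4.84% of all genes had one. Over the 9 comparisons with the block, that share of all genes ran from 3.86% to 8.23%. For MIF against no MIF over all arrays, the Mif difference was 0.25 ± 0.14 (SE, 95% interval -0.04 to 0.54, adjusted p = 0.999).

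In 0 of 7 genes did the arrays of a treated group separate fully from carrier, where 8.49% of all genes did so for sCD74/MIF, 6.89% for MIF and 5.21% for sCD74. Same-numbered differences had 1 sign in 4 of 7 genes for sCD74/MIF (Mif, Cd44 and Ackr3 higher, Cxcr4 lower; 27.5% of all genes), in 1 for MIF (Mif higher; 26.4%) and in 2 for sCD74 (Ddt and Cxcr4 lower; 25.4%). These 3 comparisons share the carrier arrays.

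**Figure D2:**
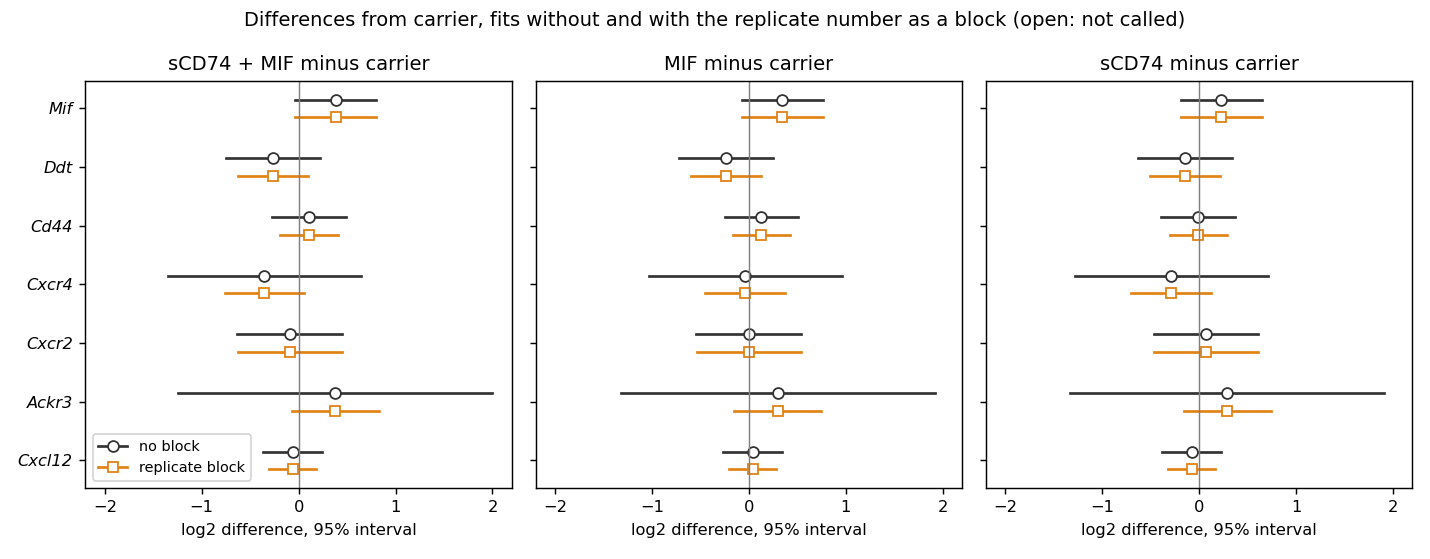
Log2 difference of each gene from carrier (x axis, points) with its 95% interval (lines) for sCD74/MIF, MIF and sCD74, in the fit without (circles) and with (squares) the replicate number as a block. All intervals include 0, the Mif intervals for sCD74/MIF begin at -0.03 in both fits, and the block narrows those of Cxcr4 and Ackr3.

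The replicate number accounted for more of the variation than treatment in Ackr3, Cxcr4, Cxcl12, Cd44 and Ddt, and its median share over all genes was also the larger. Its share of the sum of squares over 12 arrays was 92.1% for Ackr3, 81.5% for Cxcr4, 65.8% for Cxcl12, 53.7% for Cd44 and 48.5% for Ddt, against a median of 28.5% over all genes. It was 5.75% for Cxcr2, where treatment held 3.88% and the rest 90.4%, and it was 3.12% for Mif. Treatment held 34.5% for Mif and between 2.33% and 14.5% for the other 6, against a median of 19.2%. Mif was thus the 1 gene of the 7 with a larger share for treatment than for replicate number, and 77.8% of all genes had a lower treatment share than Mif. The shares are not adjusted for the 4 treatment groups against 3 replicate numbers, and more groups take up a larger share by chance.

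**Figure D3:**
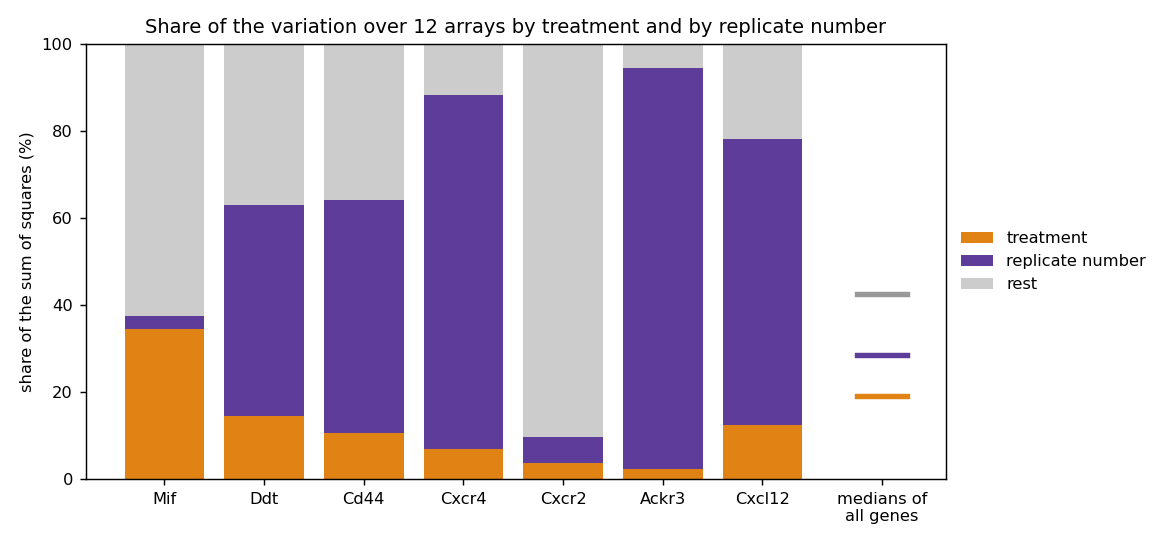
Share of each gene's sum of squares over 12 arrays (y axis, %) held by treatment, replicate number and the rest, as stacked bars, with the medians over all 19505 genes as lines at the right. Replicate number holds 92.1% for Ackr3 and 3.12% for Mif.

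Between replicate numbers, with treatment in the fit, Ackr3 and Cxcr4 were lower in numbers 2 and 3 than in number 1. Over the 4 arrays of a number, Ackr3 averaged 8.60 ± 0.22 in number 1, 6.39 ± 0.40 in number 2 and 7.48 ± 0.27 in number 3 (SD, n = 4 each), and Cxcr4 averaged 11.22 ± 0.23, 10.12 ± 0.24 and 10.09 ± 0.37 in numbers 1, 2 and 3. Cxcr4 was lower by 1.10 ± 0.16 log2 units in number 2 than in number 1 (log2 difference -1.10, SE, limma adjusted p = 6.09e-04) and by a like amount in number 3 (-1.13 ± 0.16, adjusted p = 0.00128), and its numbers 3 and 2 differed by -0.03 ± 0.16. In RNA of whole cultures, fewer cells of a type and less RNA per cell cannot be told apart.

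Ackr3 differed by -2.21 ± 0.18 between numbers 2 and 1 (SE, limma adjusted p = 9.96e-06), but all 4 arrays of number 2 lay below the negative control median. With such values set to that median, the difference was -1.15. Even in number 1 only 62.1% to 76.5% of the negative controls lay below Ackr3, so neither value fixes the size of the difference. Between numbers 3 and 1, where 2 arrays of number 3 lay below background, it was -1.12 ± 0.18 (adjusted p = 0.00222) as measured and -0.86 with the values below background raised to it. Between numbers 3 and 2 it was 1.09 ± 0.18 (adjusted p = 0.0151) as measured and 0.28 when raised, where the call was lost (adjusted p = 0.146). It was also lost without carrier array 2 (difference 1.04, adjusted p = 0.0745), without carrier array 3 (1.00, 0.0763), without the sCD74/MIF arrays (1.14, 0.0730) and without the carrier arrays (1.00, 0.147).

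In all, 2 of 7 genes passed between numbers 2 and 1, where 16.9% of all genes did, and both were among the lower genes, 7.38% of all. The same 2 of 7 passed between numbers 3 and 1 (background 9.23% in either direction, 3.75% lower), and 1 of 7, Ackr3, between numbers 3 and 2 (background 1.15%, 0.441% higher). Arrays did not overlap between numbers 2 and 1 in 4 of 7 genes (Cd44, Cxcr4, Ackr3 and Cxcl12; 22.2% of all genes), between 3 and 1 in 3 (Cxcr4, Ackr3 and Cxcl12; 14.3%) and between 3 and 2 in 1 (Ackr3; 10.4%). These comparisons share arrays. Cxcl12 averaged 15.79 ± 0.09, 15.57 ± 0.02 and 15.55 ± 0.13 in numbers 1, 2 and 3, and its differences of -0.22 ± 0.10 (number 2 minus 1, SE, adjusted p = 0.150) and -0.24 ± 0.10 (number 3 minus 1, adjusted p = 0.154) did not pass. Neither did the Cd44 difference of -0.33 ± 0.12 between numbers 2 and 1 (adjusted p = 0.0737) or the Ddt difference of 0.46 ± 0.14 between numbers 3 and 1 (adjusted p = 0.0683). The Cd44 difference passed in 6 of 23 alternative settings (adjusted p 0.0219 to 0.267) and the Ddt difference in 4 of 23 (0.00501 to 0.211). Mif differed by -0.09 to 0.10 and Cxcr2 by 0.0064 to 0.15.

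**Figure D4:**
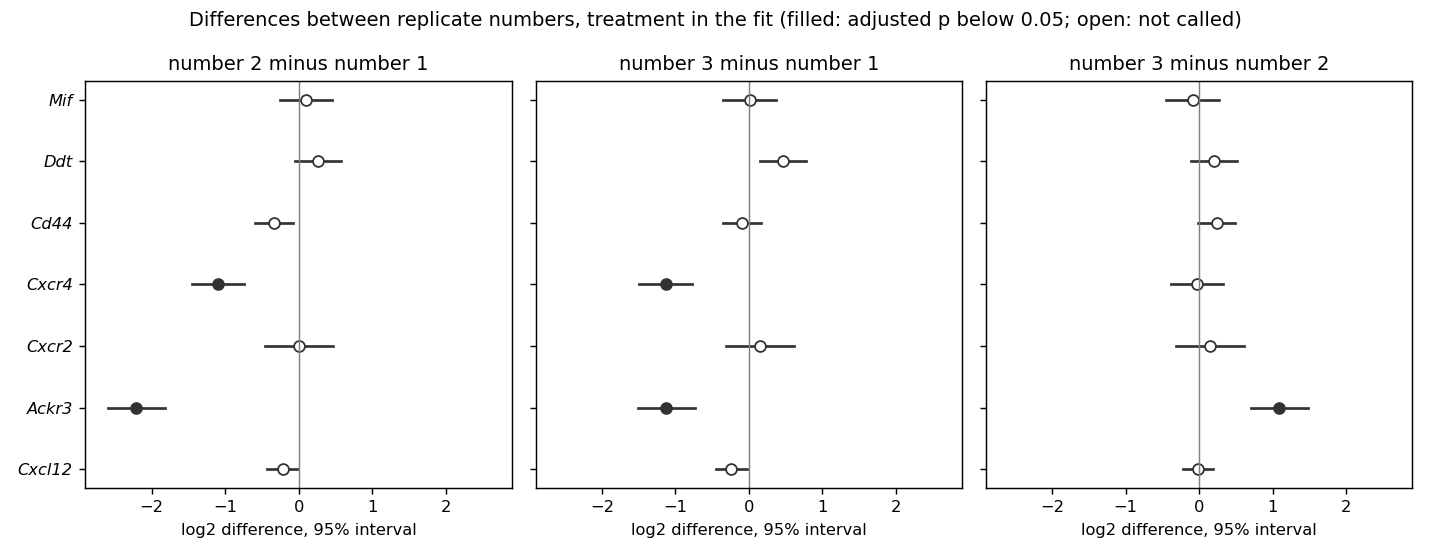
Log2 difference of each gene between replicate numbers (x axis, points) with its 95% interval (lines), from the fit with treatment as a term. Filled points, adjusted p below 0.05, are Cxcr4 and Ackr3 in both comparisons with number 1 and Ackr3 between numbers 3 and 2.

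Markers of other cell types also differed between the replicate numbers. A marker counted below as having risen or fallen passed limma's test at an adjusted p below 0.05. Among all genes, 9.5% passed as higher and 7.38% as lower between numbers 2 and 1, and 5.48% and 3.75% between 3 and 1. Between 3 and 2 these shares were 0.441% and 0.708%. Of 10 endothelial markers measured, 9 fell and 1 (Vwf) rose between numbers 2 and 1 (median difference -1.87), 8 fell between 3 and 1 (-1.31) and 5 rose between 3 and 2 (0.61). The per-array mean of the endothelial list ran from 10.40 to 10.54 in number 1, 8.67 to 8.79 in number 2 and 9.18 to 9.50 in number 3, which is the order of Ackr3. This order was not particular to the endothelial list. Medians of the per-array means in numbers 1, 2 and 3 were 8.68, 7.89 and 8.06 for smooth muscle and pericyte markers. They were 10.90, 10.66 and 10.81 for CD44 ligands and partners, and 8.51, 8.10 and 8.39 for other ligands of CXCR2 and ACKR3. The endothelial cadherin gene Cdh5 differed by -3.33 ± 0.17 and the VEGF receptor gene Kdr by -2.76 ± 0.15 between numbers 2 and 1 (SE). Macrophage markers ran the other way. All 15 passed as higher in number 2 than in number 1 (median 1.26), and 10 of 15 passed as higher in number 3 (median 0.85). With or without a call, all 15 differences were above 0 in both comparisons. List means were 12.48 to 12.89, 13.74 to 13.99 and 13.25 to 13.66 in numbers 1, 2 and 3. Of 7 smooth muscle and pericyte markers, 4 passed as lower in number 2 and 4 in number 3 against number 1. Only 4 of the 7 had means above background, with Rgs5 (7.15), Abcc9 (7.25) and Cspg4 (6.22) below it. With or without a call, 0 and 1 of these 7 differences were above 0. All 9 cardiomyocyte markers fell between numbers 3 and 1 (median -1.79), whereas 4 rose and 2 fell between 2 and 1. The means of 7 of the 9 lay above background, and those of Myh7 (6.89) and Nppa (7.30) below it. Of 7 myofibroblast markers, 1 passed as lower in number 2 and 4 in number 3 against number 1, while 0 and 1 of the 7 differences were above 0. For fibroblast markers, 0 of 8 passed in any of these comparisons. The part of these cell type markers in the Ackr3 and Cxcr4 differences was not tested. Across treatments, 0 markers of any list passed between sCD74/MIF and carrier, and the per-array endothelial mean ran from 8.79 to 10.40 with sCD74/MIF and from 8.75 to 10.49 with carrier.

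Of the pairs among the 7 genes, Cxcr4 and Cxcl12 had the highest correlation over the arrays. Cxcr4 and Cxcl12, receptor and ligand, had Pearson's r of 0.94 (Spearman's rho 0.91, n = 12 arrays), 0.89 without the 2 arrays farthest from the Cxcr4 median and 0.84 after the means of the replicate numbers were removed. Ackr3 and Cxcr4 had r of 0.79, and 0.36 after removal of those means. Ackr3 and Cxcl12 had r of 0.72 (0.45 after removal), and Ackr3 and Cd44 had 0.71 (0.15 after removal). The arrays share replicate numbers, which separate them into clusters for both receptors, so these values are a description. Mif and Ddt had r of -0.29, and -0.45 after removal.

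For Ackr3 and Cxcr4, the genes called between replicate numbers, and for Cxcl12, their shared ligand, the 250 bases before each start site are shown, from RefSeq on the build GRCm38.p6, 5′ to 3′ on the gene's strand. Capitals mark 2 short motifs found on either strand, the TATA box sequence TATAAA and the GC box sequence GGGCGG (reverse complement CCGCCC). The first is Ackr3 at chr1:90203730-90203979 on the plus strand, the second Cxcr4 at chr1:128592300-128592549 on the minus strand and the third Cxcl12 at chr6:117168285-117168534 on the plus strand.
Ackr3: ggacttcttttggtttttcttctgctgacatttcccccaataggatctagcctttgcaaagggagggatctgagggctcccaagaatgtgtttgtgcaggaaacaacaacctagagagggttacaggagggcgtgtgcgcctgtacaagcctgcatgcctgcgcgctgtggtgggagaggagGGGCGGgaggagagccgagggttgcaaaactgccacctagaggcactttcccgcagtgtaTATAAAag
Cxcr4: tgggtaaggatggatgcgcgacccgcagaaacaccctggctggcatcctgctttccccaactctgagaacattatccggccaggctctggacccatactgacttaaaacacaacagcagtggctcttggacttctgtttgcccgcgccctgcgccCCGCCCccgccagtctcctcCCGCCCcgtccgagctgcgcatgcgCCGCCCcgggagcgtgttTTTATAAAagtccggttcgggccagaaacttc
Cxcl12: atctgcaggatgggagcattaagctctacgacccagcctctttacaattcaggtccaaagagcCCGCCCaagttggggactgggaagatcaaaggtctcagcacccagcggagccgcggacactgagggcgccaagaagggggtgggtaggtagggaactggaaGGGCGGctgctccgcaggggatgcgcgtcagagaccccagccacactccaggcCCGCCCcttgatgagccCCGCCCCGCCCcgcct

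TATAAA was found in the windows of Ackr3 and Cxcr4, 2 of the 7 genes, and in 12.4% of the 32851 promoters in the table. The Cxcr4 window holds it on both strands in overlapping copies, starting 32 and 30 bases before the start site, and the Ackr3 window holds it 8 bases before the start site. GGGCGG was found in 5 of the 7 windows (Mif, Ddt, Cxcr4, Ackr3 and Cxcl12) and in 32.7% of all promoters, with 5 copies in Cxcl12, 3 in Cxcr4 and 1 in Ackr3. The last 2 copies in Cxcl12 overlap. The 5-base hypoxia response core ACGTG, on either strand, was in the windows of Ddt and Cd44 and in 16.6% of all promoters. The palindromic cyclic AMP response element TGACGTCA was in the window of Mif and in 1.55% of all promoters. All 7 genes matched this table by symbol, and a match is a description of letters, not of a bound site.

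By Pearson's r over the 12 arrays, among 10852 genes above background, the gene most like Ackr3 was Cxcl5 (r = 0.98), a neutrophil-attracting ligand of CXCR2, followed by Kdr (0.97) and the RNA-binding protein gene Khdrbs3 (0.97). Cxcl5 fell by 2.11 ± 0.20 log2 units between numbers 2 and 1 (SE, adjusted p = 2.29e-05), and its values were 11.21, 10.98, 11.52 and 10.94 in number 2 and 13.49, 13.41, 13.10 and 13.10 in number 1 (sCD74/MIF, MIF, sCD74 and carrier). No array of number 2 reached number 1. Cxcr4 and Cxcl12 shared their 2 nearest genes, Fkbp14 (r = 0.97 and 0.96), a collagen-folding isomerase gene, and Stc1 (0.95 and 0.95), which encodes the secreted glycoprotein stanniocalcin 1. Next to Mif stood Nxt1 (0.91), Nsa2 (0.89) and Ltv1 (0.89), of which Nxt1 serves RNA export and Nsa2 and Ltv1 ribosome assembly. Next to Ddt stood Kbtbd4 (0.93), Taz (0.92) and Jmjd1c (0.91), next to Cd44 Msantd3 (0.92), Prr11 (0.90) and Lama1 (0.90), and next to Cxcr2 Wasl (0.91), Zbp1 (0.84) and Tmco6 (0.83). Without the 2 arrays farthest from the Cxcr2 median, the last 3 values were 0.64, 0.65 and 0.51.

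After the means of the replicate numbers were removed, the nearest genes were others for Mif, Ddt, Cd44, Cxcr4 and Ackr3. Ackr3 was then nearest to Rnf185 (0.91), Rnf31 (0.91) and Ppat (0.90), and Cxcr4 to Ptpre (0.96), Arhgap18 (0.92) and Trf (0.92). Cd44 was nearest to Spopl (0.91), the cytokine gene Il1b (0.91) and Gpr84 (0.89), Mif to Abcb1a (0.94), Wdr77 (0.93) and Mgat1 (0.93), and Ddt to Deptor (0.93), Defb2 (0.92) and Wnk1 (0.92). Fkbp14 (0.90) and Stc1 (0.89) stayed among the 3 nearest to Cxcl12, with Pxn (0.91), and Wasl (0.94) stayed nearest to Cxcr2, with Dohh (0.92) and Sh3d19 (0.91). With 12 arrays and this many genes searched, high values of r occur in number, and they say nothing of shared function.

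**Figure D5:**
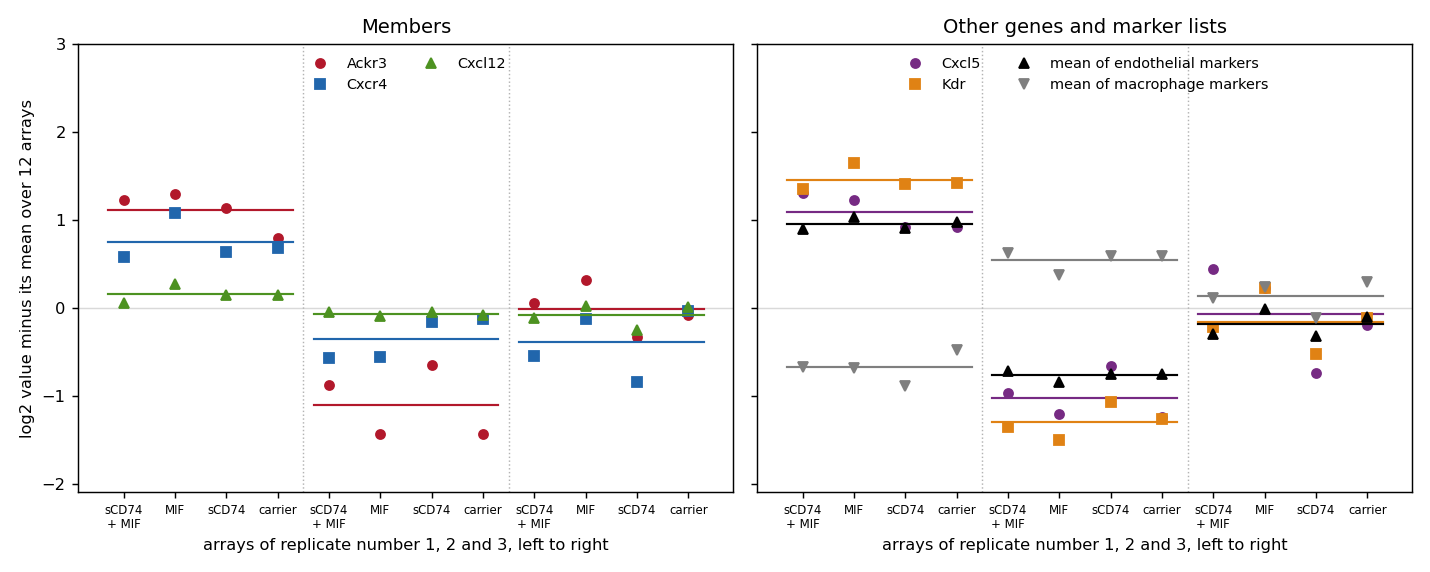
Log2 values minus their mean over 12 arrays (y axis) for Ackr3, Cxcr4 and Cxcl12 (left) and for Cxcl5, Kdr and the means of the endothelial and macrophage marker lists (right), by array (x axis), with the mean of each replicate number as a line. Ackr3, Cxcl5, Kdr and the endothelial mean are highest in number 1 and lowest in number 2, and the macrophage mean is lowest in number 1.

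Other genes of the pathway gave no call between treatments. Of the MIF signalling list, 21 of 26 genes were analysed here and 0 passed between sCD74/MIF and carrier (median difference 0.06, all genes 0.0014), the smallest p belonging to Ptgs2, the inducible prostaglandin synthase gene, whose mean of 6.70 lay below background. Of 8 other ligands of CXCR2 and ACKR3, 0 passed and 7 had a positive difference (median 0.19), but 4 of these 7 (Cxcl2, Cxcl3, Ppbp and Cxcl11) had means below background. The smallest p was that of Cxcl1, a neutrophil-attracting chemokine, with 8.36, 7.51 and 8.25 in the sCD74/MIF arrays 1, 2 and 3 and 7.90, 7.27 and 7.47 in the carrier arrays (difference 0.50 ± 0.25, SE, adjusted p = 0.999). The ranges of Cxcl1 overlapped. The 9 related chemokine receptors (median -0.12, with 2 of the 9 means above background), 13 genes of CD44 ligands and partners (-0.07), 8 proteases (-0.01) and 12 regulators of CXCR4 and CXCL12 (0.07) also held 0 calls. Their smallest p values were those of the chemokine receptor gene Cxcr6 (-0.33 ± 0.22), the hyaluronan synthase gene Has1, which lay below background, the sheddase gene Adam10 (-0.15 ± 0.19) and Rgs1, a brake on G protein signalling (-0.44 ± 0.37, SE).

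Between numbers 2 and 1, where 9.5% of all genes passed as higher and 7.38% as lower, each of these lists held at least 1 call. Genes counted here as having risen or fallen are those that passed. In the MIF signalling list 4 of 21 rose and 4 fell (median 0.08, all genes -0.02), led by the leukocyte PI3-kinase gene Pik3cg (1.72 ± 0.14), the MAP kinase phosphatase gene Dusp1 (-1.29 ± 0.14), the kinase gene Syk (1.06 ± 0.15) and Pik3cd (0.74 ± 0.12, SE). Among the 8 ligands Cxcl5 fell, and so did Adm (-0.39 ± 0.10), which encodes adrenomedullin, a peptide that ACKR3 also binds. In the CD44 list the hyaluronan synthase gene Has2 (-1.69 ± 0.12) and the proteoglycan gene Vcan (-1.76 ± 0.15) fell, and Ezr, whose product ezrin links CD44 to actin, rose (0.93 ± 0.12), 3 of 13. Among the 9 receptors, Cx3cr1, the fractalkine receptor gene and also a macrophage marker here, rose (1.28 ± 0.13). Of 8 proteases 3 rose and 2 fell, among them Ctss (0.89 ± 0.12), Adam17 (0.57 ± 0.09), Mme (-0.84 ± 0.16) and Adam10 (-0.45 ± 0.10), with Mme at a mean of 7.12, below background. Of 12 regulators of CXCR4 and CXCL12, 4 rose and 3 fell, among them Rgs5 (-1.14 ± 0.11), also a pericyte marker here, the receptor kinase gene Grk5 (-0.53 ± 0.10), Rgs2 (1.38 ± 0.27) and Rgs1 (0.69 ± 0.18, SE). The Rgs5 mean of 7.15 lay below background. In number 1, Rgs2 was 7.02 with sCD74/MIF, 7.24 with MIF and 7.05 with sCD74, but 8.63 with carrier. The first 3 of these values lay below the negative control medians of their arrays (7.39, 7.45 and 7.49), so the size of the Rgs2 difference is not fixed.

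Between numbers 3 and 1, where 5.48% of all genes passed as higher and 3.75% as lower, the counts were 4 higher and 3 lower in the MIF signalling list, 0 and 2 among the ligands, 1 and 1 among the receptors, 2 and 1 in the CD44 list, 2 and 1 among the proteases and 2 and 2 among the regulators. Cxcl5 (-1.16 ± 0.20), Has2 (-1.17 ± 0.12), Dusp1 (-0.97 ± 0.14), Gnai1 (-0.80 ± 0.12), an inhibitory G protein subunit gene through which CXCR4 signals, Rgs5 (-0.93 ± 0.11), Adm (-0.43 ± 0.10) and Grk5 (-0.41 ± 0.10) fell. Pik3cg (0.94 ± 0.14), Syk (0.67 ± 0.15), Cx3cr1 (1.07 ± 0.13), Ezr (0.51 ± 0.12), the membrane protease gene Mmp14 (0.55 ± 0.10), Adam17 (0.51 ± 0.09), Ctss (0.54 ± 0.12), Rgs2 (1.31 ± 0.27) and Rgs1 (0.89 ± 0.18, SE) rose. Mme and Ackr1, a scavenging chemokine receptor gene, also passed as lower, with means of 7.12 and 6.22 that lay below background. The Rgs5 mean (7.15) lay below background too, and so did Rgs2 on the sCD74/MIF, MIF and sCD74 arrays of number 1. Between numbers 3 and 2, 4 genes of these lists passed: Cxcl5 (0.95 ± 0.20) and Vcan (1.39 ± 0.15) rose, and Prkaa2 (-1.05 ± 0.14), an AMP-activated kinase subunit gene, and Pik3cg (-0.78 ± 0.14, SE) fell. In number 3, Prkaa2 lay below the negative control median of its array with sCD74/MIF (7.41), sCD74 (7.12) and carrier (7.36). With MIF (7.60) it lay above.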

How the data were processed

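RNA of 12 cultures was hybridised to 12 arrays. The authors deposited log2 values, 1 column per sample. The submitters' processing notes name RMA, Transcriptome Analysis Console and Affymetrix Expression Console, with versions, settings and any later rescaling not given in the sources used here. RMA usually normalizes arrays to 1 distribution, which can hide a global shift, and values reached 18.39, above a 16-bit scanner's range, so log2 differences need not be true folds. The number of arrays limits the precision.

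Of 22206 probe sets other than controls, 19572 had 1 gene symbol. The highest probe set per gene left 19505 genes. The lmFit and eBayes functions of limma 3.58.1, run in R 4.3.3, fitted each gene as 4 group means, or as replicate numbers plus treatment, two-sided, with Benjamini-Hochberg adjustment within a comparison at 0.05. The test was checked on simulated data. For treatments these held no differences between replicate numbers. The check thus does not cover how such differences affect the fit without the block. Members, lists and tests were chosen with earlier results of these data known. Named genes outside the 7 were the 3 most like each member, the called list genes with the 4 smallest p, or the smallest p where none was called. Alternatives were the replicate block, centring, normalization, a background filter, another variance model and arrays, numbers or groups left out.

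The titles pair same-numbered arrays by a shared code. As a check, deviations from group means correlated with r of 0.0971 to 0.647 for same-numbered arrays (above 0.1 in 17 of 18 pairs) and -0.544 to 0.175 for others.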

Additional observations from a re-analysis of the deposited data

Results flagged for a closer look

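Among the 4 arrays of replicate number 3, Cxcr2 stood apart on the sCD74 array, at 8.57 against 7.68 with sCD74/MIF, 7.79 with MIF and 7.74 with carrier. That array also had the highest negative control median of the 12, 7.90. It was 1 of 21 sets of 4 arrays examined, and chance alone sets apart about 1 in 20.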

How the results depend on the processing

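In the 9 treatment comparisons 0 of 7 genes passed under every alternative run, the replicate block included, which left 0 members called in each. Over all genes the block took the calls for MIF against no MIF to 1, from 0 without it. Among all alternatives, the highest count of genes called was 6 for sCD74/MIF against carrier and 3 for MIF against no MIF. It was 2 for sCD74/MIF against sCD74 and 1 for MIF against carrier. Between replicate numbers, Ackr3 and Cxcr4 passed in both comparisons with number 1 under every alternative in which they were tested; Ackr3 was not tested under the background filter. An intensity trend with robust variance gave 4 members in each of these comparisons (with Cd44 and Cxcl12 between 2 and 1, and with Ddt and Cxcl12 between 3 and 1). Cd44 also passed between 2 and 1 in 5 other settings (the background filter, values set to background, without MIF array 1 or 3, and without the MIF group), and Ddt between 3 and 1 in 3 others (the background filter, values set to background, and without sCD74/MIF array 3). Between numbers 3 and 2 the count was 0 with the background filter, without the sCD74/MIF or the carrier group, and with values below background set to it (an alternative chosen after seeing the data), and 0 to 1 with an array left out. Of 1004 recomputed differences given in the text, 66 had the opposite sign, and 0 of these passed the test. The treatment fits with single arrays left out had no replicate block, so the replicate numbers were then unevenly spread over the groups. Ackr3 for sCD74/MIF against carrier, for example, was -0.22 without carrier array 2, while its same-numbered differences were 0.44, 0.56 and 0.14. The part of this in the changes of sign was not tested.

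With arrays or replicate numbers left out, and without the replicate block, differences from carrier that changed sign ranged as follows. With a single array left out, these ranges also hold the spread between replicate numbers. For sCD74/MIF (where Cxcr4 and Cxcl12 kept their sign, from -0.73 to -0.10 and from -0.11 to -0.0019) they ran from -0.22 to 0.90 for Ackr3, -0.0117 to 0.21 for Cd44 and -0.20 to 0.073 for Cxcr2. For MIF they ran from -0.32 to 1.05 for Ackr3, -0.0556 to 0.27 for Cd44, -0.0629 to 0.11 for Cxcl12, -0.21 to 0.23 for Cxcr2 and -0.51 to 0.31 for Cxcr4. For sCD74 they ran from -0.31 to 0.81 for Ackr3, -0.11 to 0.11 for Cd44, -0.18 to 0.022 for Cxcl12, -0.31 to 0.51 for Cxcr2, -0.67 to 0.0709 for Cxcr4 and -0.31 to 0.0368 for Ddt. Between numbers 2 and 1 they ran from -0.24 to 0.20 for Cxcr2 and -0.0214 to 0.27 for Mif, between 3 and 1 from -0.12 to 0.34 for Cxcr2 and -0.15 to 0.18 for Mif, and between 3 and 2 from -0.0614 to 0.0394 for Cxcl12, -0.13 to 0.27 for Cxcr2, -0.20 to 0.13 for Cxcr4 and -0.25 to 0.0087 for Mif.

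Centring on the array median gave 0.0006 for Cd44 (sCD74 minus carrier), -0.0193 for Cxcr2 (2 minus 1) and 0.0024 for Cxcl12 (3 minus 2). A further quantile normalization gave -0.0782 for Mif (3 minus 1). Without the MIF group, Cxcr2 (2 minus 1) was -0.10 and Mif (3 minus 1) -0.17. Without the sCD74 group, Cxcr2 was -0.14 (2 minus 1), -0.20 (3 minus 1) and -0.0573 (3 minus 2), Cxcr4 0.18 and Cxcl12 0.0433 (3 minus 2). Without the carrier group, Mif was -0.046 (2 minus 1) and -0.0858 (3 minus 1). With values below background set to it, Cxcr2 was -0.0217 (2 minus 1).

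Signal over background limits Cxcr2 on all arrays and Ackr3 on the arrays of numbers 2 and 3 and on carrier array 1, where 62.1% of negative controls lay below it. The margin was also modest for Ackr3 on the other arrays of number 1 (72.7% to 76.5% below) and for Ddt on all arrays (68.9% to 81.9% below).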
